A study of Mus musculus with 9 samples.

Results

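The genes on either side of Sting1 on mouse chromosome 18 were compared across 3 groups of AngII-treated kidneys. Sting1 encodes STING, an adaptor of innate immunity, and lies at positions 35733679 to 35740489 of the deposited coordinates (build GRCm38). The segment was set by position, as every row that starts between 30700000 and 40700000 on that chromosome. Of its 232 rows, 84 reached an FPKM of 1 in 3 or more of the 9 libraries and are described here. The table lists 32593 genes, of which 12507 met the same minimum. A further 146 rows of the segment had lower values, and 2 other genes of the segment that passed are left out by the selection. Sting1 itself reached that FPKM in 2 libraries and is not counted among the 84. The genes were thus chosen by position and by their FPKM level over all groups, except that Fgf1 was named in it with its difference between the floxed lines already known.

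RNA was taken from whole kidney, and each group had 3 libraries. The AngII group was Tmemfl/fl without Cre, the CDH16KO-AngII group was CDH16 Cre+/Tmemfl/fl, and the GRPR-AngII group was CDH16 Cre+/GRPRfl/fl. All groups received AngII, the blood pressure-raising peptide hormone angiotensin II, so none lacks it. The labels write the floxed gene only as Tmem. The series title names STING, whose gene was formerly called Tmem173. Cre was under control of the Cdh16 promoter, which is active in tubule epithelium, so other cells of the organ keep the floxed allele. The labels give GRPR-AngII no floxed Tmem allele, which separates it from the other two groups at this locus. The sources used here do not give strain, age or sex. Nothing says that the libraries came from separate animals, so p-values measure only the spread between these libraries.

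A gene-targeted allele is passed on together with the stretch of chromosome around it. Where the targeting was done in cells of one mouse strain and the line was then bred to another, the flanking genes can stay of the first strain for many generations, and their transcripts can differ from those of mice without the allele for reasons unrelated to the targeted gene. Genes close to a targeted locus are read in comparisons of floxed lines for this reason. FGF1, the product of the gene in this segment that the selection names, is a secreted growth factor without a signal peptide that binds all of the FGF receptors and needs heparan sulfate to do so.

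Libraries held 40731748 to 60449117 counts, and mitochondria-coded genes took 16.1% to 26.4% of them. Levels are given as CPM, which are TMM-scaled counts for every 1000000 of a library. Sting1 stood at 4.62, 1.77 and 5.33 CPM in AngII, at 2.15, 2.24 and 2.04 CPM in CDH16KO-AngII, and at 2.90, 2.90 and 2.68 CPM in GRPR-AngII. The AngII libraries spanned the values of both other groups, and CDH16KO-AngII against AngII gave p = 0.4 by an exact permutation test (two-sided, smallest possible p 0.1). GRPR-AngII against AngII gave the same exact p of 0.4. Every CDH16KO-AngII library was below every GRPR-AngII library, with an exact permutation p of 0.1, the smallest possible. The level of Sting1 therefore does not separate the Cre-positive floxed group from its Cre-negative control in these libraries. Which exons are floxed is not known here, so counts from outside them would not show the deletion. Markers of every kidney cell type looked up (proximal tubule, loop of Henle, distal tubule, collecting duct, podocyte) were present above 0 in all libraries, and 0 of the 5 neuronal markers reached the filter. In bulk kidney RNA, fewer cells of a type and less RNA per cell cannot be told apart.

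The 84 genes were ordinary kidney transcripts in level. Their median over genes of the mean FPKM was 4.57, against 4.29 for all genes tested. The most abundant were Pfdn1, a prefoldin subunit, at 71.5 FPKM, Hspa9, the mitochondrial HSP70 chaperone, at 69.6 FPKM, and Proc, the precursor of the anticoagulant protein C, at 60.5 FPKM. Slc23a1, the ascorbate transporter of proximal tubule, stood at 40.2 FPKM. Of the 84, 44 lie before Sting1 on the chromosome and 40 after it, from Slc25a46 at 31556111 to Yipf5 at 40203896. Protein-coding genes made up 74. The other 10 were 5 pseudogenes, 3 long non-coding RNAs and 2 small nucleolar RNAs, the last with 1 to 20 counts per library.

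All 9 libraries reached the FPKM minimum for 74 of the genes, and the other 10 reached it in 3 to 8. No gene passed through the libraries of 1 group only. Just inside the threshold were Pkd2l2, with a third-highest FPKM of 1.05, and Taf7, with 1.07. Just outside was Spry4, a feedback inhibitor of FGF signalling, with 0.92. The largest block that did not pass was the clustered protocadherins, adhesion proteins known mainly from neurons: of 49 rows of the Pcdha, Pcdhb and Pcdhg clusters 1 passed, Pcdhgc3.

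The first question was whether the neighbours of the floxed locus differ between the groups that share the floxed Tmem allele and the group that lacks it. GRPR-AngII also carries the floxed GRPR allele, and the AngII libraries on the other side lack Cre. Effects of these differences cannot be told apart in this comparison. In GRPR-AngII against the 2 Tmemfl/fl groups, 0 of the 84 genes passed edgeR's quasi-likelihood test at a Benjamini-Hochberg adjusted p under 0.05, where 0% of all genes tested did. At an unadjusted p under 0.05 there were 7 of 84, or 8.33%, against 5.87% of all genes tested. DESeq2 called 2 of 84, Fgf1 and Proc, against 0.600% of all genes, and limma on log2(FPKM + 1) called 0, where 0% of all genes were called. The ranges of the 3 GRPR-AngII and the 6 Tmemfl/fl libraries did not overlap for 1 gene, Fgf1 (1.19%), against 2.99% of all genes tested. Fgf1 was named by the selection with its difference between the floxed lines known. Nothing is read from its part in these counts or in the later ones.

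The second comparison kept the floxed allele and varied Cre. In CDH16KO-AngII against AngII, 0 of the 84 passed the edgeR test, against 0.168% of all genes tested. There were 11 at an unadjusted p under 0.05 (13.1%, against 8.45%), and 14 whose 3 libraries a side did not overlap (16.7%, against 12.2%). DESeq2 called Fgf1 and Stard4 (2.38%, against 1.68% of all genes), and limma called 0, against 0.200% of all genes. The segment's shares at an unadjusted p and by ranges lie above those of all genes here, a difference that was not tested. By ranges, tested genes elsewhere on chromosome 18 also had 16.7%.

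GRPR-AngII against AngII differs in both the floxed allele and Cre. Again 0 of the 84 passed the edgeR test, where 0% of all genes did, and both DESeq2 and limma called 0 of them, against 0.432% of all genes for DESeq2 and 0% for limma. Unadjusted p under 0.05 was reached by 4 (4.76%, against 6.74%), and ranges were separate for 7 (8.33%, against 14.0%). In this comparison both shares were below those of all genes.

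GRPR-AngII against CDH16KO-AngII sets the Cre-positive floxed lines beside each other. The edgeR test called 1 of the 84, Fgf1, which is the gene the selection named with this difference known, against 0.144% of all genes tested, and nothing is read from that share. DESeq2 called 3, Fgf1, Proc and Stard4, against 1.40% of all genes, and limma called 1, Fgf1, against 0.136% of all genes. An unadjusted p under 0.05 was reached by 10 (11.9%, against 6.24%), 5 higher in GRPR-AngII (against 3.03% of all genes) and 5 lower (against 3.21%). Ranges were separate for 15 (17.9%, against 9.96%), with 9 higher in GRPR-AngII (against 4.66% of all genes) and 6 lower (against 5.30%). By ranges, tested genes elsewhere on chromosome 18 had 15.4% in this comparison. The 4 comparisons share libraries, so their counts are not independent of each other.

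**Figure D1:**
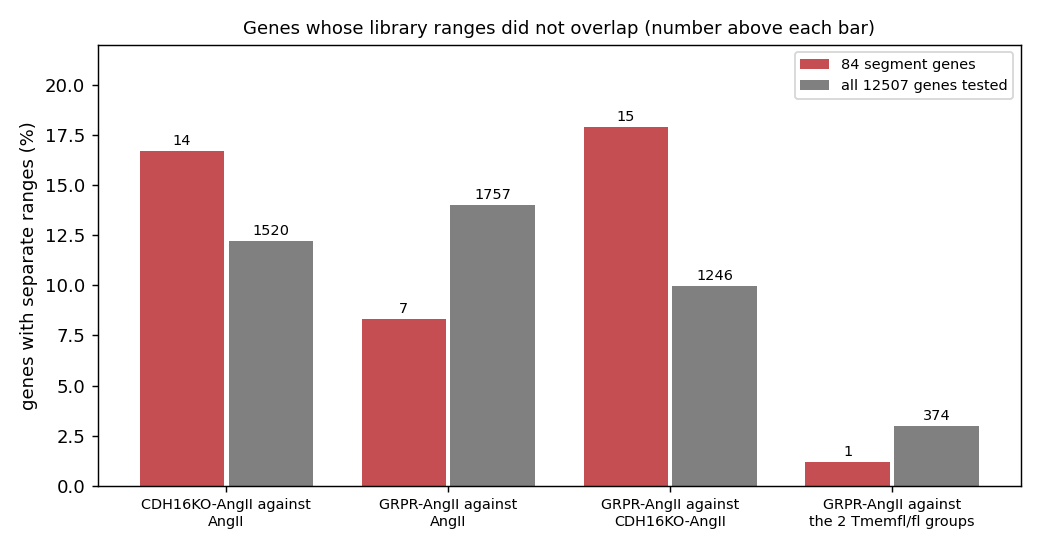
Share of genes whose library ranges did not overlap between the sides compared (vertical axis, percent; number of genes above each bar), for the 84 segment genes in red and all 12507 genes tested in grey, in the 4 comparisons. The segment stood above all genes in CDH16KO-AngII against AngII (16.7% and 12.2%) and in GRPR-AngII against CDH16KO-AngII (17.9% and 9.96%). Tested genes elsewhere on chromosome 18, not drawn, had 16.7% and 15.4% there. In the other comparisons the segment stood below all genes. Fgf1, named with its difference between the floxed lines known, is among the segment genes counted in each comparison.

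The sizes of the differences were close to those of all genes. The median log2 fold change of the 84 genes was 0.01 in CDH16KO-AngII against AngII, and it lay within 0.01 of 0 in the 3 comparisons with GRPR-AngII as well. The median size regardless of sign was 0.17 in CDH16KO-AngII against AngII (0.18 for all genes tested), 0.18 in GRPR-AngII against AngII (0.17), and 0.14 in GRPR-AngII against CDH16KO-AngII (0.14) and against the 2 Tmemfl/fl groups (0.13). Of the 84 genes, 45 were on the positive side in the first of these (53.6%, against 51.9% of all genes) and 42 in each of the others (against 47.4% to 49.0%). The 95% interval of the fold change lay within a 2-fold change either way for 70 of the 84 in CDH16KO-AngII against AngII (79.8% of all genes tested), for 72 in GRPR-AngII against AngII (82.1%), for 70 in GRPR-AngII against CDH16KO-AngII (82.4%) and for 76 against the 2 Tmemfl/fl groups (87.9%). These are 83.3%, 85.7%, 83.3% and 90.5% of the segment genes. A 1.5-fold change bounded the interval for fewer, 38, 40, 39 and 50 of the 84 in the same order, against 42.5%, 43.8%, 48.0% and 59.4% of all genes, so smaller differences are not bounded for many of them. In simulated counts for GRPR-AngII against the 2 Tmemfl/fl groups, edgeR recovered 80.6% of genes changed 2-fold and 20.9% of those changed 1.5-fold. The simulation changed 67 genes 1.5-fold, 67 genes 2-fold and 66 genes 4-fold. With that many changed genes the adjusted threshold is looser than in the data, where 0 genes were called. The recovered shares can therefore be too high for these libraries.

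**Figure D2:**
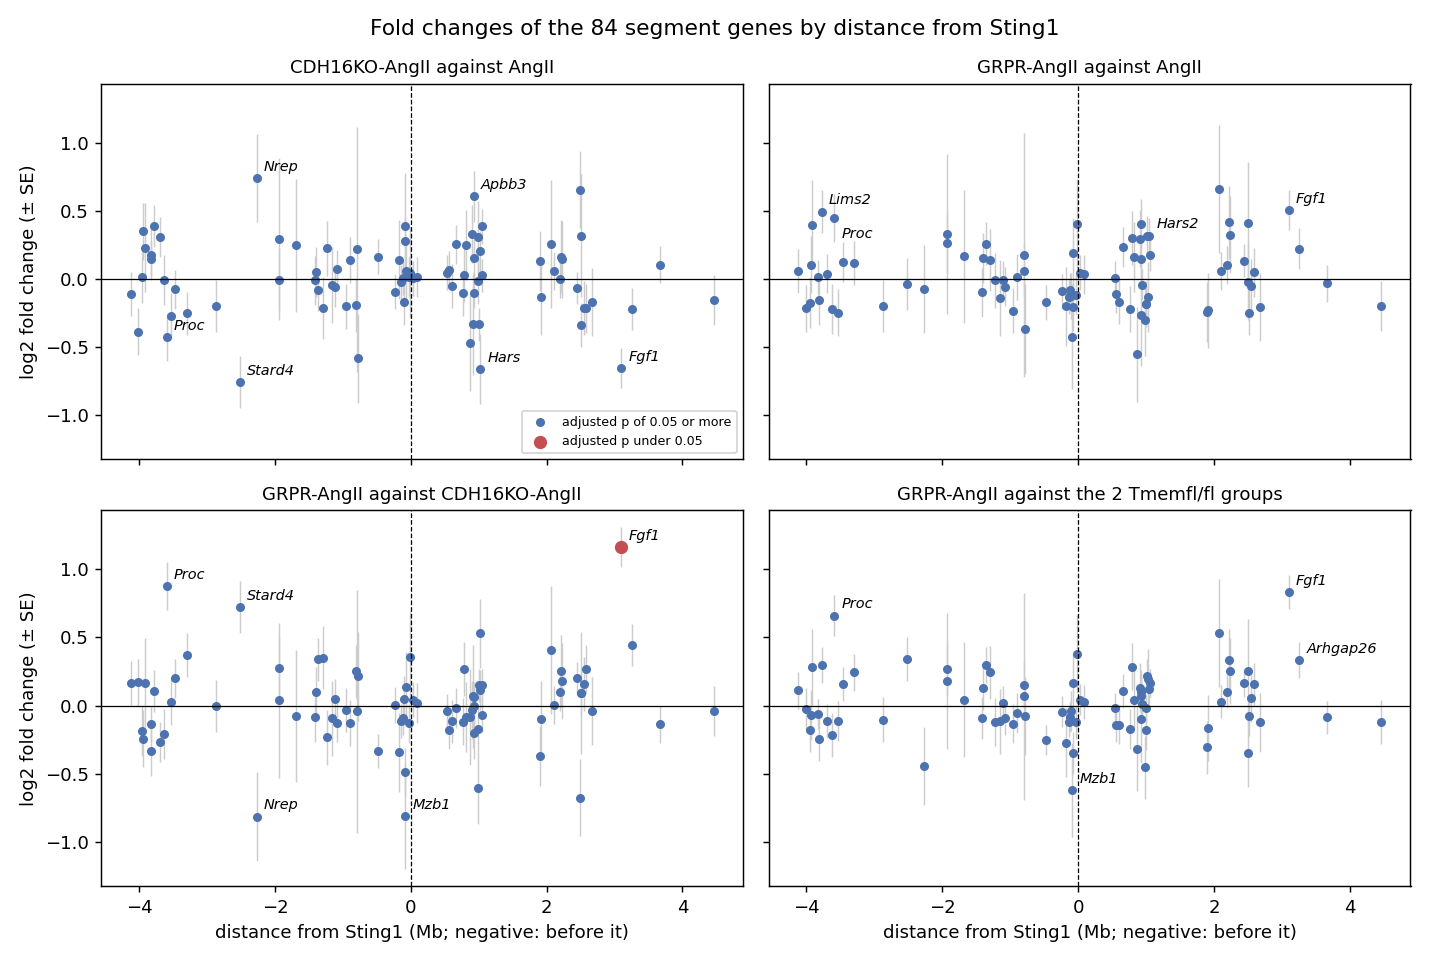
Log2 fold change (vertical axis, with its SE) of each of the 84 segment genes against its distance from Sting1 in Mb (horizontal axis, 0 at the dashed line), 1 panel per comparison. Points lie on both sides of 0 in each distance band, unevenly in some. The 1 red point is Fgf1 in GRPR-AngII against CDH16KO-AngII, at 1.16 and 3.10 Mb from Sting1.

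The genes nearest to Sting1 gave no call. On the side before it, the nearest 5 are Ecscr (an endothelial cell surface protein, 11.3 kb away), Dnajc18 (a J-domain co-chaperone), Spata24, Prob1 and Mzb1 (an endoplasmic reticulum protein of B and plasma cells). On the side after it they are Ube2d2a (a ubiquitin-conjugating enzyme, 31.1 kb away), Cxxc5 and Pura (nucleic acid-binding regulators), Igip and Cystm1. The last 3 lie 540.6, 558.2 and 602.0 kb away. Further genes before Sting1 are nearer than these and not among the 10, from Slc23a1 at 106.4 kb to Ctnna1 at 478.9 kb. Against the 2 Tmemfl/fl groups, the log2 fold changes of these 10 in GRPR-AngII ran from -0.62 for Mzb1 to 0.38 for Ecscr, and the smallest adjusted p of edgeR's quasi-likelihood test was 0.828. In CDH16KO-AngII against AngII they ran from -0.06 for Cystm1 to 0.39 for Mzb1, with a smallest adjusted p of 0.659 in the same edgeR test. The interval lay within a 2-fold change for 8 of the 10 against the 2 Tmemfl/fl groups and for 9 of the 10 in CDH16KO-AngII against AngII.

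Ube2d2a shows how little the closest well-expressed gene varied. It stood at 56.2, 65.0 and 58.0 CPM in AngII, at 59.5, 63.0 and 56.9 CPM in CDH16KO-AngII, and at 58.7, 70.3 and 55.8 CPM in GRPR-AngII. The 3 groups overlapped fully, and its log2 fold change in GRPR-AngII against the 2 Tmemfl/fl groups was 0.04 with a 95% interval of -0.21 to 0.29. Cxxc5 and Pura were similarly even, at 0.03 and -0.02 in that comparison. Ecscr was measured far less precisely, from 2.21 to 6.10 CPM over the 9 libraries, with an interval of -0.25 to 1.01. Prob1, from 26.2 to 56.1 CPM, had all GRPR-AngII libraries below all CDH16KO-AngII libraries, with a log2 fold change of -0.49 (SE 0.18, edgeR adjusted p = 0.6). Against the 2 Tmemfl/fl groups it had -0.35, with a 95% interval of -0.69 to -0.007 (edgeR adjusted p = 0.828). Its CDH16KO-AngII libraries also lay above all AngII libraries, at 0.28 (edgeR adjusted p = 0.659).

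By distance, the median log2 fold change in GRPR-AngII against the 2 Tmemfl/fl groups was -0.09 for the 13 genes within 500 kb of Sting1, -0.04 for the 20 at 500 to 1000 kb, 0.11 for the 26 at 1000 to 2500 kb and -0.02 for the 25 beyond 2500 kb. In CDH16KO-AngII against AngII the same bands had medians of 0.01, 0.04, 0.05 and -0.16. Signs were uneven in some bands. Within 500 kb, 10 genes were positive and 3 negative in CDH16KO-AngII against AngII, and 4 and 9 against the 2 Tmemfl/fl groups. At 500 to 1000 kb, 5 were positive and 15 negative in GRPR-AngII against CDH16KO-AngII. This unevenness was not tested. Against the 2 Tmemfl/fl groups, an unadjusted edgeR p under 0.05 was reached by 2, 0, 1 and 4 genes of these bands (5.87% of all genes tested). The 2 of the nearest 13 were Prob1 and Ctnna1, at -0.35 and -0.25. In CDH16KO-AngII against AngII the counts were 0, 1, 5 and 5 (8.45% of all genes). By edgeR no band had a call in either comparison, and the farthest band had the call of Fgf1 between the Cre-positive groups. The genes that DESeq2 called, Fgf1, Proc and Stard4, also lie beyond 2500 kb. Outside the segment, 221 other tested genes of chromosome 18 also had 0 edgeR calls in each of the 4 comparisons. Over all genes tested that share was 0% to 0.168%. In CDH16KO-AngII against AngII, 33 of the 221 had an unadjusted edgeR p under 0.05, and 16.7% had separate ranges. Between the Cre-positive groups these values were 24 and 15.4%. In GRPR-AngII against AngII they were 23 and 18.6%, and against the 2 Tmemfl/fl groups 12 and 4.07%.

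Fgf1 (ENSMUSG00000036585, chromosome 18, 38838673 to 38929472, minus strand) was the only gene of the segment whose 3 groups were all separate. Its start lies 3.10 Mb beyond Sting1. It stood at 149, 131 and 120 CPM in AngII, at 76.5, 90.5 and 86.4 CPM in CDH16KO-AngII, and at 163, 207 and 197 CPM in GRPR-AngII. Every CDH16KO-AngII library was below every AngII library, and every GRPR-AngII library was above them all. Such a separation of all 3 groups was seen for 1 of the 84 genes (1.19%) and for 74 of all genes tested, or 0.592%. Fgf1 was named with part of this pattern known, so nothing is read from that share.

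Group means of Fgf1 were 133 ± 14.3 CPM in AngII, 84.5 ± 7.24 CPM in CDH16KO-AngII and 189 ± 23.1 CPM in GRPR-AngII (SD, n = 3). GRPR-AngII was 2.24-fold above CDH16KO-AngII, a log2 fold change of 1.16 with a 95% interval of 0.84 to 1.49 and an adjusted p of 0.0194 in edgeR's quasi-likelihood test. This value is a description, because the gene was singled out for it. The call ended when CDH16KO-AngII library 3 (edgeR adjusted p = 0.0621) or GRPR-AngII library 1, 2 or 3 (adjusted p = 0.058, 0.0663 and 0.077) was left out, and also when the spread was estimated from these groups alone (adjusted p = 0.0523). The fold change itself stayed between 1.09 and 1.26 in all of the fits that left out 1 library.

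The other differences of Fgf1 did not pass the edgeR test. CDH16KO-AngII against AngII gave a log2 fold change of -0.66 (SE 0.14, edgeR adjusted p = 0.155), GRPR-AngII against AngII gave 0.51 (SE 0.14, edgeR adjusted p = 0.647), and GRPR-AngII against the 2 Tmemfl/fl groups gave 0.83 (SE 0.12, edgeR adjusted p = 0.148). DESeq2 called the first (adjusted p = 0.00258) and the last (adjusted p = 9.47e-07), and limma called neither. AngII, which has the floxed Tmem allele and no Cre, stood between the Cre-positive groups.

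Proximal tubule markers and mitochondrial RNA also varied between these libraries. The summed CPM of 8 proximal tubule markers was 10260 to 12110 in AngII, 7642 to 10390 in CDH16KO-AngII and 10440 to 11920 in GRPR-AngII. No marker was at 0, and edgeR called 0 of 8 in any comparison. Slc34a1 weighed most in the sum, with means of 5700, 3951 and 5574 CPM in that order. The markers did not all move together. In CDH16KO-AngII against AngII 6 were lower and 2 higher, Slc5a2 (log2 fold change 0.38) and Hnf4a (0.07). In GRPR-AngII against CDH16KO-AngII 5 were higher and 3 lower. The lowest sums, 8157 and 7642, were those of CDH16KO-AngII libraries 1 and 3, and library 2 had 10390, within the AngII range. Mitochondria-coded genes took 21.5%, 17.2% and 17.4% of the counts in AngII, 23.4%, 16.1% and 26.4% in CDH16KO-AngII, and 19.2%, 19.1% and 24.6% in GRPR-AngII. The 3 groups overlapped in this share. The part of either measure in the Fgf1 values was not tested.

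Fgf1 shares no exon with another gene and no stretch of 50 bases with another transcript, so no other gene model competes for its reads. Its neighbours on the chromosome had smaller differences. Arhgap26, which begins 63.7 kb after Fgf1, stood at 19.0, 17.4 and 14.8 CPM in AngII, at 14.5, 15.6 and 13.7 CPM in CDH16KO-AngII, and at 19.7, 22.3 and 17.6 CPM in GRPR-AngII. All GRPR-AngII libraries were above all CDH16KO-AngII libraries, with AngII overlapping both. Its log2 fold change between the Cre-positive groups was 0.44 (SE 0.15, edgeR adjusted p = 0.546). On the other side, Ndfip1, an adaptor of NEDD4-family ubiquitin ligases 373.4 kb from Fgf1, had -0.04 in the same comparison, and Spry4, 237.3 kb away and too low to be tested, ranged from 3.07 to 5.70 CPM over the 9 libraries.

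**Figure D3:**
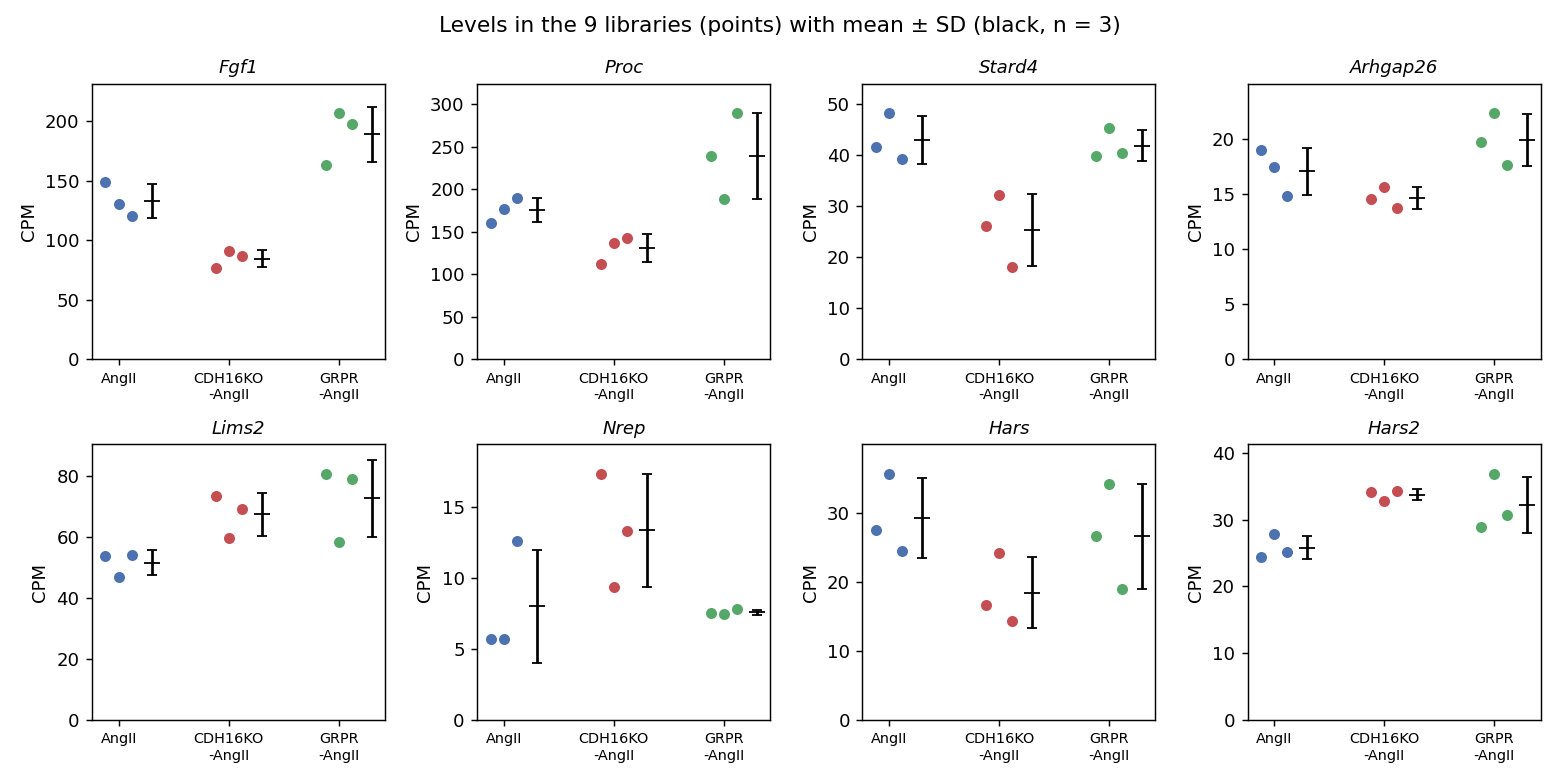
CPM (vertical axes, starting at 0) of 8 segment genes in the 3 libraries of each group (points), with the mean and SD in black. Fgf1 separated all 3 groups, Stard4 was low in CDH16KO-AngII alone (18 to 32.1 CPM), and Lims2 was low in AngII alone (46.8 to 54.1 CPM).

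Around Fgf1, the wider FGF pathway was looked up as a list of 39 ligands, receptors, adaptors and feedback inhibitors, of which 27 were tested. Fgf1 was its only edgeR call, in GRPR-AngII against CDH16KO-AngII (0.144% of all genes tested). There were 0 calls in the other 3 comparisons (0% to 0.168% of all genes). An unadjusted edgeR p under 0.05 was reached by 5 of the 27 in CDH16KO-AngII against AngII and 3 in GRPR-AngII against AngII. It was reached by 5 between the Cre-positive groups and by 3 against the 2 Tmemfl/fl groups. The shares of all genes tested were 8.45%, 6.74%, 6.24% and 5.87% in the same order. Between the Cre-positive groups the 5 were Fgf1, Fgfr4, Fgf9 (log2 fold change -0.51), Frs3 (-0.49) and Gpc1 (-0.57). Among receptors, Fgfr4 had group means of 44.4 ± 2.01 CPM in AngII, 74.5 ± 6.99 CPM in CDH16KO-AngII and 51.3 ± 8.43 CPM in GRPR-AngII (SD, n = 3). Its log2 fold change in CDH16KO-AngII against AngII was 0.75 (SE 0.14, edgeR adjusted p = 0.11), and between the Cre-positive groups it was -0.54, opposite in sign to Fgf1. Fgfr1, Fgfr2 and Fgfr3 had log2 fold changes of 0.07, -0.02 and 0.18 between the Cre-positive groups. The feedback inhibitors Spry1 and Spry2 had -0.21 and -0.18 there, and none of these passed the test.

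Proc lies at the other end of the segment (chromosome 18, 32123126 to 32139570, 3594 kb before Sting1), and its group means had the same order as those of Fgf1. It stood at 160, 177 and 189 CPM in AngII, at 111, 136 and 143 CPM in CDH16KO-AngII, and at 239, 188 and 289 CPM in GRPR-AngII. All CDH16KO-AngII libraries were below all AngII libraries, while AngII and GRPR-AngII met at 188 and 189 CPM. Between the Cre-positive groups the log2 fold change was 0.88 (SE 0.18, edgeR adjusted p = 0.135), and against the 2 Tmemfl/fl groups it was 0.66 (edgeR adjusted p = 0.411). DESeq2 called both, with adjusted p of 0.000665 and 0.013.

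Stard4 (chromosome 18, 33199355 to 33213862), which carries cholesterol between membranes, was low in the Sting1-floxed Cre-positive group alone. It stood at 41.6, 48.2 and 39.2 CPM in AngII, at 26.1, 32.1 and 18 CPM in CDH16KO-AngII, and at 39.9, 45.3 and 40.4 CPM in GRPR-AngII. AngII and GRPR-AngII overlapped, and each lay wholly above CDH16KO-AngII. The log2 fold change was -0.76 in CDH16KO-AngII against AngII (SE 0.19, edgeR adjusted p = 0.215). Between the Cre-positive groups it was 0.72 (edgeR adjusted p = 0.282). In GRPR-AngII against AngII it was -0.04. DESeq2 called the first (adjusted p = 0.0253) and the second (adjusted p = 0.0457).

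Lims2, an adaptor of integrin-linked kinase at focal adhesions, was instead low in the Cre-negative group. AngII held 53.7, 46.8 and 54.1 CPM, CDH16KO-AngII 73.5, 59.7 and 69.1 CPM, and GRPR-AngII 80.7, 58.2 and 79.0 CPM. Both Cre-positive groups lay above AngII without overlap and overlapped each other. The log2 fold changes against AngII were 0.39 in CDH16KO-AngII (edgeR adjusted p = 0.555) and 0.49 in GRPR-AngII (edgeR adjusted p = 0.685), and these comparisons share the AngII libraries. Hars2, the mitochondrial histidyl-tRNA synthetase, was also lowest in AngII, from 24.4 to 27.8 CPM in AngII, 32.8 to 34.3 CPM in CDH16KO-AngII and 28.8 to 36.9 CPM in GRPR-AngII.

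Among the 4 signalling genes of the segment, Fgf1 was the only call. With 0% to 0.168% of all genes tested called by edgeR per comparison, nothing is read from 0 calls in this or the following role groups. Apbb3, an adaptor that binds the tail of the amyloid precursor protein, stood at 17.0, 18.9 and 24.9 CPM in AngII and at 31.7, 25.2 and 35.6 CPM in CDH16KO-AngII. The groups did not overlap, though AngII library 3 and CDH16KO-AngII library 2 were close. Its log2 fold change was 0.60 (SE 0.19, edgeR adjusted p = 0.375). Hbegf, an EGF receptor ligand shed from the cell surface, and Map3k2, a kinase above JNK and ERK5, had -0.10 and -0.28 in that comparison, and Map3k2 had -0.25 in GRPR-AngII against AngII.

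The 13 genes grouped under adhesion, the actin skeleton and membrane shape had 0 calls. The group also holds Pkd2l2 and Nrep, whose place in these roles is not sure. Between the Cre-positive groups the median log2 fold change of the 13 was 0.20, where all genes tested had -0.01. Ranges were separate for 6 of 13, Pkd2l2 and Nrep included (9.96% of all genes). Ctnna1, alpha-catenin of cell junctions, stood at 234, 222 and 219 CPM in CDH16KO-AngII and at 193, 179 and 163 CPM in GRPR-AngII, with AngII between at 206, 212 and 186 CPM. The GRPR-AngII libraries were all below the CDH16KO-AngII ones (log2 fold change -0.34, SE 0.13, edgeR adjusted p = 0.644). Against AngII, GRPR-AngII had -0.17 for this gene. Between the Cre-positive groups Bin1, which bends membranes, had 0.37, and Reep5, which shapes the endoplasmic reticulum, had 0.34. Diaph1, an actin-nucleating formin, and Apc, which restrains beta-catenin, had 0.00 and -0.09 there. Myo7b, the myosin of the brush border, had 0.31 in CDH16KO-AngII against AngII (edgeR adjusted p = 0.608).

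Nrep, named for its part in neuronal regeneration, had the widest spread of this role group. It stood at 5.70, 5.66 and 12.6 CPM in AngII, at 17.3, 9.36 and 13.3 CPM in CDH16KO-AngII, and at 7.50, 7.43 and 7.78 CPM in GRPR-AngII. AngII library 3 lay among the CDH16KO-AngII values, while the GRPR-AngII libraries were close together below them. The log2 fold changes were 0.74 in CDH16KO-AngII against AngII (SE 0.33, edgeR adjusted p = 0.588) and -0.82 between the Cre-positive groups (edgeR adjusted p = 0.688). The first of these ran from 0.51 to 1.23 when 1 library was left out.

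The 17 genes grouped under chromatin and transcription differed little, among them Fam13b, whose place in these roles is not sure. Their median log2 fold change lay between -0.03 and 0.02 in the 4 comparisons, with 0 calls. Nr3c1, the glucocorticoid receptor, ranged from 37.5 to 39.9 CPM in AngII, from 36.3 to 49.6 CPM in CDH16KO-AngII and from 35.0 to 39.7 CPM in GRPR-AngII, with overlap throughout. Hdac3, a histone deacetylase, had log2 fold changes of 0.00 and 0.10 in CDH16KO-AngII and in GRPR-AngII against AngII. The largest difference from AngII in CDH16KO-AngII on the negative side was that of Sap130, a subunit of the Sin3 corepressor complex, at -0.39 (edgeR adjusted p = 0.588). In GRPR-AngII, Fam53c had -0.24 against AngII (edgeR adjusted p = 0.772), and Taf7, a subunit of the general transcription factor TFIID, had -0.31 against the 2 Tmemfl/fl groups (edgeR adjusted p = 0.893).

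Of the 11 genes of RNA processing and translation 0 were called. Hars and Hars2 are neighbours that lie head to head and encode the cytosolic and the mitochondrial histidyl-tRNA synthetase. Hars stood at 27.6, 35.7 and 24.4 CPM in AngII and at 16.7, 24.2 and 14.4 CPM in CDH16KO-AngII, just short of overlapping, for a log2 fold change of -0.66 (SE 0.26, edgeR adjusted p = 0.533). Hars2 had 0.39 in the same comparison (SE 0.13, edgeR adjusted p = 0.426), so the pair pointed in opposite directions. Their exons overlap over 7.97% of Hars, and the sources used here do not say whether counting used strand. Ik, a splicing factor, had -0.34 there, with separate ranges, and -0.19 in GRPR-AngII against AngII. Wdr55, a WD-repeat protein, had 0.32 in GRPR-AngII against AngII (edgeR adjusted p = 0.732). Etf1, the translation termination factor, Matr3, a nuclear RNA-binding protein, and Paip2, which holds back poly(A)-binding protein, had -0.19, -0.02 and 0.01 in CDH16KO-AngII against AngII.

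Among the 9 genes of folding, ubiquitin and trafficking there were 0 calls, and Hspa9 varied most between libraries. It stood at 454, 523 and 342 CPM in AngII, at 241, 460 and 177 CPM in CDH16KO-AngII, and at 320, 434 and 267 CPM in GRPR-AngII. In each group library 2 was the highest and library 3 the lowest, and the groups overlapped. The log2 fold change in CDH16KO-AngII against AngII was -0.59 (SE 0.33, edgeR adjusted p = 0.642). The mitochondrial share of counts in CDH16KO-AngII was 23.4%, 16.1% and 26.4% for libraries 1, 2 and 3, lowest where Hspa9 was highest. Its part in the Hspa9 values was not tested. Sil1, the exchange factor of the chaperone BiP, had -0.10, and Pfdn1 had 0.25.

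The 7 genes of mitochondria, transport and metabolism had medians from -0.11 to 0.09 and 0 calls. Slc23a1 stood at 178, 165 and 162 CPM in AngII, at 170, 148 and 129 CPM in CDH16KO-AngII and at 147, 126 and 188 CPM in GRPR-AngII, with overlap throughout. Slc4a9, an anion exchanger of intercalated cells, ranged from 115 to 207 CPM and had log2 fold changes of 0.03 and 0.30 in CDH16KO-AngII and GRPR-AngII against AngII. Dele1, a mitochondrial protein that relays stress to the cytosol, had -0.34 and -0.25 in these.

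The segment holds few genes of immune cells. Cd14, the co-receptor for lipopolysaccharide, stood at 6.42, 5.38 and 9.54 CPM in AngII, at 7.28, 7.88 and 11.2 CPM in CDH16KO-AngII, and at 6.56, 4.89 and 5.87 CPM in GRPR-AngII. All GRPR-AngII libraries were below all CDH16KO-AngII libraries, and AngII overlapped both. The log2 fold change was -0.61 (SE 0.26, edgeR adjusted p = 0.766). The summed CPM of 5 macrophage markers was 76.2 to 147 in CDH16KO-AngII and 104 to 132 in GRPR-AngII, with no marker at 0. Of these 5, 4 were tested and 0 called. Csf1r, C1qa and C1qb had log2 fold changes of 0.09, 0.49 and 0.50 in that comparison, and Cd68 had -0.18. Mzb1 had -0.81 in that comparison, from 1.91 to 6.92 CPM. In it, 57.2% of the exonic length lies within exons of a read-through model with Spata24. Of 5 B and plasma cell markers 4 were tested and 0 called. All 4 went the other way from Mzb1, with a median log2 fold change of 0.92. The summed CPM of the 5 was 15.3 to 24.6 in CDH16KO-AngII and 17.4 to 66.7 in GRPR-AngII.

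Exonic overlap with another gene was present for 34 of the 84 genes, and 19 shared more than 10% of their 50-base words with other transcripts. The largest overlaps among named protein-coding genes were 95.1% for Maskbp3 (with Ankhd1 and Eif4ebp3), 67.3% for Eif4ebp3 and 66.9% for Pcdhgc3, whose 3′ exons are common to the whole Pcdhg cluster. Their counts depend on how reads were assigned. Pcdhgc3 had the largest log2 fold change of GRPR-AngII against AngII, 0.66 (SE 0.47, edgeR adjusted p = 0.777), and ranged from 5.57 to 30.4 CPM within the AngII libraries alone.

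As a whole the segment did not shift with a library or a group. The median over the 84 genes of the deviation from each gene's mean ran from -0.034 (GRPR-AngII library 3) to 0.062 (CDH16KO-AngII library 2) on the log2 scale. The order of the 3 group means was spread evenly over the genes, with 13 to 16 genes in each of the 6 possible orders. The highest library was less than 2-fold above the lowest for 59 genes, 2- to 3-fold above it for 16 and more than 3-fold above it for 9.

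**Figure D4:**
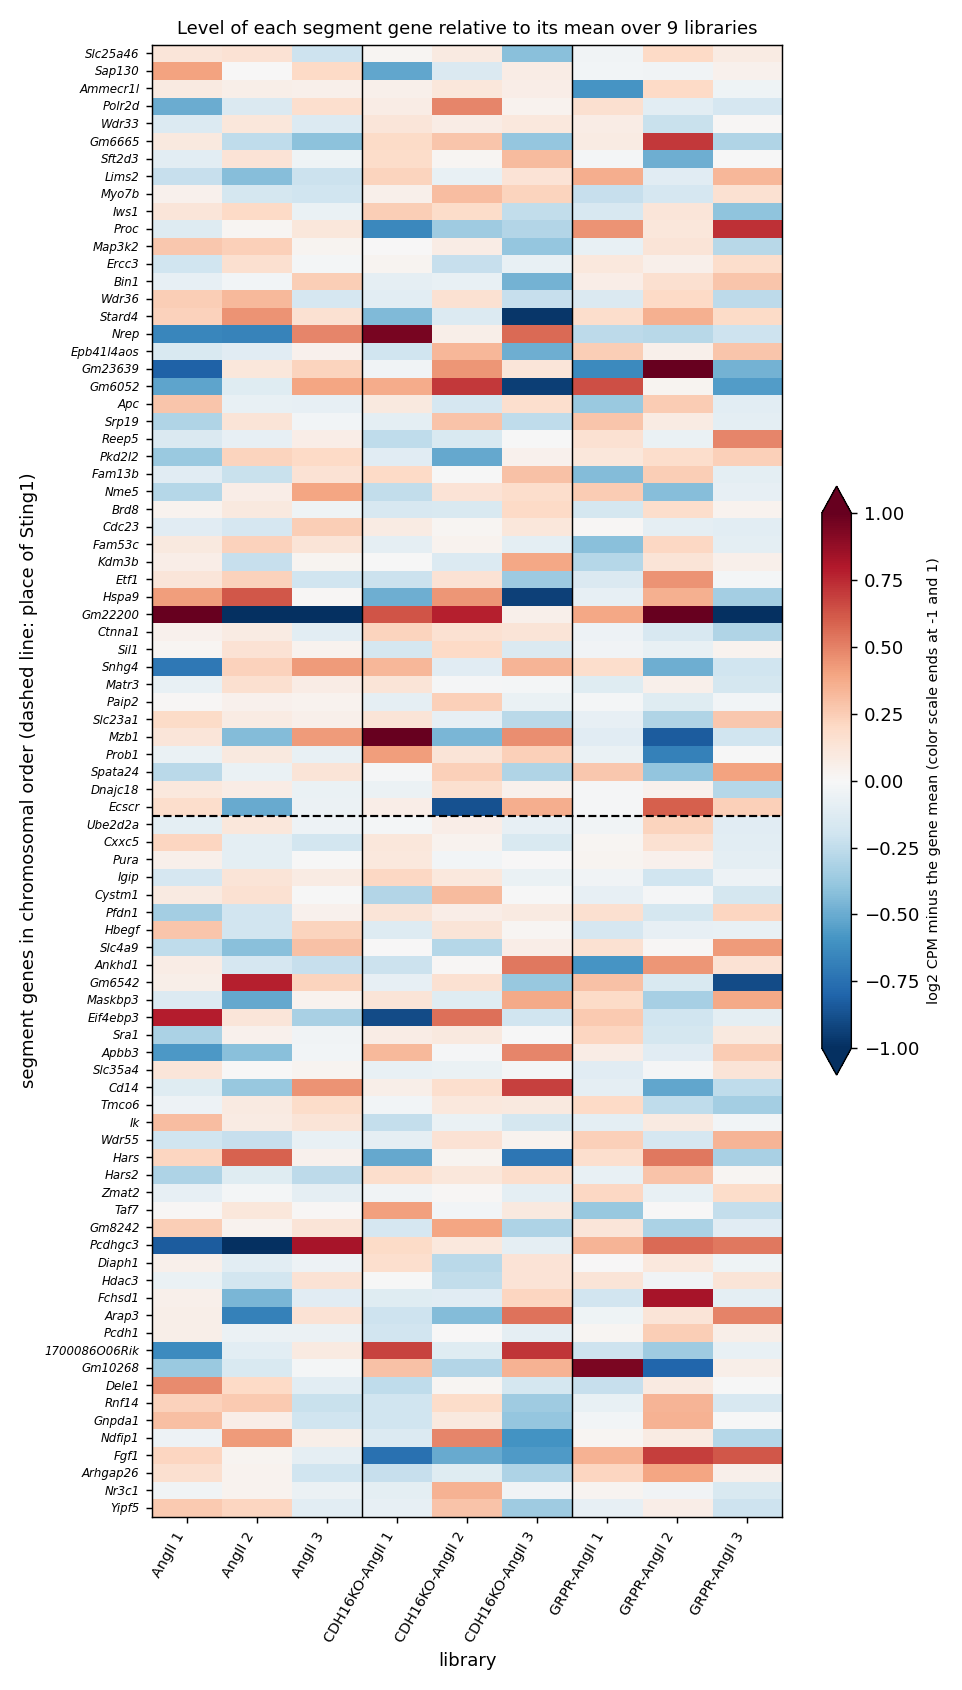
Log2 CPM of each of the 84 segment genes (in chromosomal order from top to bottom, Sting1 at the dashed line) minus its mean over the 9 libraries (columns, 3 per group), on a color scale that ends at -1 and 1. No block of adjacent genes changes color with a group, and the Fgf1 line near the bottom is the 1 with 3 separate groups.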

How the data were processed

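The deposited table holds 32593 genes with FPKM values and counts, as named in its header, for 9 kidney libraries. The FPKM values were computed by the authors. The counts deposited by the authors are whole numbers and were treated like expected counts, rounded before deposit. The submitters' processing notes name GRCm38 and mm10, and the sources used here name no aligner or counter. Counts of all 12507 genes that reached an FPKM of 1 in 3 or more libraries entered 1 fit over the 9 libraries with edgeR 4.0.16 in R 4.3.3 (TMM scaling, quasi-likelihood test, Benjamini-Hochberg over all of them, threshold 0.05). DESeq2 1.42.0 and limma 3.58.1 were alternatives, as were other filters and scalings, narrower segments and leaving out each library. The limma fits used log2(FPKM + 1) or log2(FPKM + 0.1), a scale that understates the change of low genes. SEs were derived from each F statistic and its log2 fold change. The fit was tested on simulated data. Exon overlaps and shared words of 50 bases come from the GENCODE M21 annotation of GRCm38, in which 84 of the 84 genes occur and 70 have the deposited coordinates. Figures were drawn with matplotlib 3.10.9.

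The members, role groups and gene lists were chosen with earlier results of these data known. Named were Fgf1, any call, the 5 genes of smallest p per direction and comparison, the 5 nearest to Sting1 on each side, genes with a sure role, and FGF genes. Predicted genes were counted and not named. Genes of the edges and overlaps, and Fam13b, were named after their values were seen. No sequence of this chromosome is printed.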

Additional observations from a re-analysis of the deposited data

How the results depend on the processing

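No followed fold change reversed. The 40 fold changes followed, of 22 segment genes, gave 670 values over the other settings. Of these, 659 kept direction and side of the threshold, and 6 passed it only in DESeq2. The other 5 lost it, all being Fgf1 in GRPR-AngII against CDH16KO-AngII. The settings share libraries, so the 670 values are not independent. DESeq2 called more genes in every comparison. Its counts over all genes were 210 in CDH16KO-AngII against AngII (edgeR 21), 54 in GRPR-AngII against AngII (edgeR 0), 175 in GRPR-AngII against CDH16KO-AngII (edgeR 18) and 75 in GRPR-AngII against the 2 Tmemfl/fl groups (edgeR 0). In the segment it called 2, 0, 3 and 2. In GRPR-AngII against CDH16KO-AngII, edgeR called 41 genes without the FPKM filter and 9 when only these groups entered the fit, where the segment had 0. The segment count was also 0 for genes within 1000000 bases and within 2500000 bases of Sting1, since Fgf1 lies outside both.

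Leaving out 1 library gave 0 to 42 calls over all genes in CDH16KO-AngII against AngII (0 without AngII library 1, 42 without CDH16KO-AngII library 1), 0 to 2 in GRPR-AngII against AngII, 0 to 50 in GRPR-AngII against CDH16KO-AngII (0 without GRPR-AngII library 1, 50 without CDH16KO-AngII library 1) and 0 to 15 against the 2 Tmemfl/fl groups. The segment had 0 to 1 in GRPR-AngII against CDH16KO-AngII and 0 in the others.

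The segment's median log2 fold change stayed near 0. With limma on log2(FPKM + 0.1) it was -0.031 in CDH16KO-AngII against AngII, -0.062 in GRPR-AngII against AngII, -0.044 in GRPR-AngII against CDH16KO-AngII and -0.061 against the 2 Tmemfl/fl groups. With log2(FPKM + 1) it was -0.048 in GRPR-AngII against AngII and -0.046 against the 2 Tmemfl/fl groups. Within 1000000 bases of Sting1 it was -0.092 in GRPR-AngII against AngII, -0.042 in GRPR-AngII against CDH16KO-AngII and -0.057 against the 2 Tmemfl/fl groups. Without genes of overlapping exons it was -0.037 in GRPR-AngII against AngII. Leaving out 1 library gave -0.010 to 0.026 in CDH16KO-AngII against AngII, -0.044 to 0.012 in GRPR-AngII against AngII, -0.045 to 0.046 in GRPR-AngII against CDH16KO-AngII and -0.043 to 0.025 against the 2 Tmemfl/fl groups. The cause of these shifts was not tested.

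Same-numbered libraries of different groups correlated at -0.103 to 0.244 in their deviations, with 6 of 9 pairs above 0.1. Libraries of different numbers correlated at -0.300 to 0.227. Libraries of the same number thus had some likeness, and its cause was not tested. The main fit did not take the numbers as pairs, and what the number stands for is not given. With the replicate number as a block the segment had 0, 0, 1 and 0 calls and all genes 26, 0, 13 and 0. Of the 9 libraries 6 correlated best with one of their own number. A group size of 3 limits what can be seen: edgeR recovered 59.7% of genes simulated with a 2-fold change between the Cre-positive groups and 8.96% of those with a 1.5-fold change. The simulation changed more genes than the 18 called in the data, so these shares can be too high as well.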
